A study of Mus with 8 samples.

Results

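The VPS10 sorting receptors are a family of 5 genes in the mouse, Sorcs1 (NCBI gene 58178), Sorcs2 (81840), Sorcs3 (66673), Sort1 (20661) and Sorl1 (20660). Their RNA was followed in 3T3-L1 cells with and without knockdown of Prep1, a homeodomain transcription factor, before and after the start of fat cell differentiation. The 5 genes were taken by name from the 24013 genes of the count table. Sorcs1 was chosen by its level, since it was among the genes with a large rise both in uninduced P cells and in C cells upon induction, and the other 4 were added as its family. For Sorcs1, these 2 comparisons and the difference between them are therefore a description and carry no test.

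The 3T3-L1 line is a clone of mouse embryo fibroblasts that can be turned into adipocytes by hormones. C cells had been infected with a scrambled shRNA and P cells with a lentiviral shRNA against Prep1 in a vector based on pLKO.1, and puromycin selection is common to all samples. Cells taken before induction (day −2, uninduced) had not received the hormones, and those taken at day 1 (induced) had been for a day in 1 µM dexamethasone, 0.5 mM IBMX, 1 µg/ml insulin and 10% FBS. The authors' growth medium held BCS in place of FBS, and no uninduced cells were sequenced at day 1. A change upon induction therefore cannot be assigned to the hormones apart from time in culture and the change of serum. Each of the 4 conditions had 2 replicas, 8 libraries in all. The authors describe them as biological replicas, and all of them come from a single cell line.

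VPS10 receptors are membrane proteins that span the membrane once and bind cargo through a luminal domain first described in the yeast sorting receptor Vps10. They carry proteins between the trans-Golgi network, the cell surface and the endosomes, and their short cytoplasmic tails bind the adaptors (GGA proteins, AP-1, AP-2) and the retromer that set the route. Sort1 encodes sortilin, which is known in fat cells as a resident of the vesicles that store the glucose transporter GLUT4. Sorl1 encodes SorLA, best known as a sorting receptor of the amyloid precursor protein APP. Sorcs1, Sorcs2 and Sorcs3 encode the SorCS proteins, which have been studied mostly in neurons. SorCS2 is a co-receptor of the neurotrophin receptor Ngfr for proneurotrophins, and the Sorcs1 locus has been linked to insulin secretion and diabetes in mice.

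The libraries held 20428816 to 27614353 counts (median 23376076), and 3 counts corresponded to 0.107 to 0.160 CPM, counts scaled to an equal library size by the TMM method of edgeR, a floor that covers counting error only. Prep1, listed as Pknox1, lay between 17.3 and 18.3 CPM in uninduced P cells and between 26.5 and 28.1 CPM in uninduced C cells. Its log2 ratio was −0.62 (standard error 0.14) at day −2 and −0.65 (standard error 0.14) at day 1, and its adjusted p was 0.0558 and 0.0575 in the quasi-likelihood test of edgeR, adjusted by the Benjamini-Hochberg method. These are ratios of 0.652 and 0.636, not under 0.5, so Prep1 itself was not called by the rule given below. All 8 markers of preadipocytes or fibroblasts were present at 27.6 CPM or more in every library. Of 4 neuronal markers, Rbfox3, Snap25 and Syt1 did not exceed 0.392 CPM in any library, while Tubb3 lay between 1.15 and 7.77 CPM. The 4 summed to 6.60 to 8.29 CPM in the libraries of day −2 and to 1.31 to 2.37 CPM in those of day 1, and the part of this in the results was not tested. The pairs of markers of glia, endothelium, leucocytes, epithelium and skeletal muscle summed to at most 1.26 CPM. The replicas of uninduced P cells stood farthest apart. Over 5600 well expressed genes, the SD of their log2 difference was 0.795, against 0.121 to 0.261 in the other conditions, and the fibroblast markers summed to 62637 CPM in replica 1 and 18260 CPM in replica 2. The main results that rest on these libraries are given with and without them.

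Of the 5 receptor genes, 3 had enough counts to be tested, Sorcs1, Sorcs2 and Sort1. A gene was called when its adjusted p was under 0.1 and its ratio over 2 or under 0.5. In P against C cells at day −2, Sorcs1 was higher and Sorcs2 was lower by this rule, where 6.98% of the 13339 tested genes were called. The same 2 genes passed in the same directions in P against C cells at day 1, where 4.06% of the tested genes were called. Upon induction of C cells, Sorcs1 rose while Sorcs2 and Sort1 fell, with 20.4% of the tested genes called. Upon induction of P cells, 1 member passed, Sorcs1, which rose, and 18.0% of the tested genes were called. For Sorcs1, the calls at day −2 and upon induction of C cells follow from the way it was chosen. The comparisons share libraries with each other and are not independent.

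**Figure D1:**
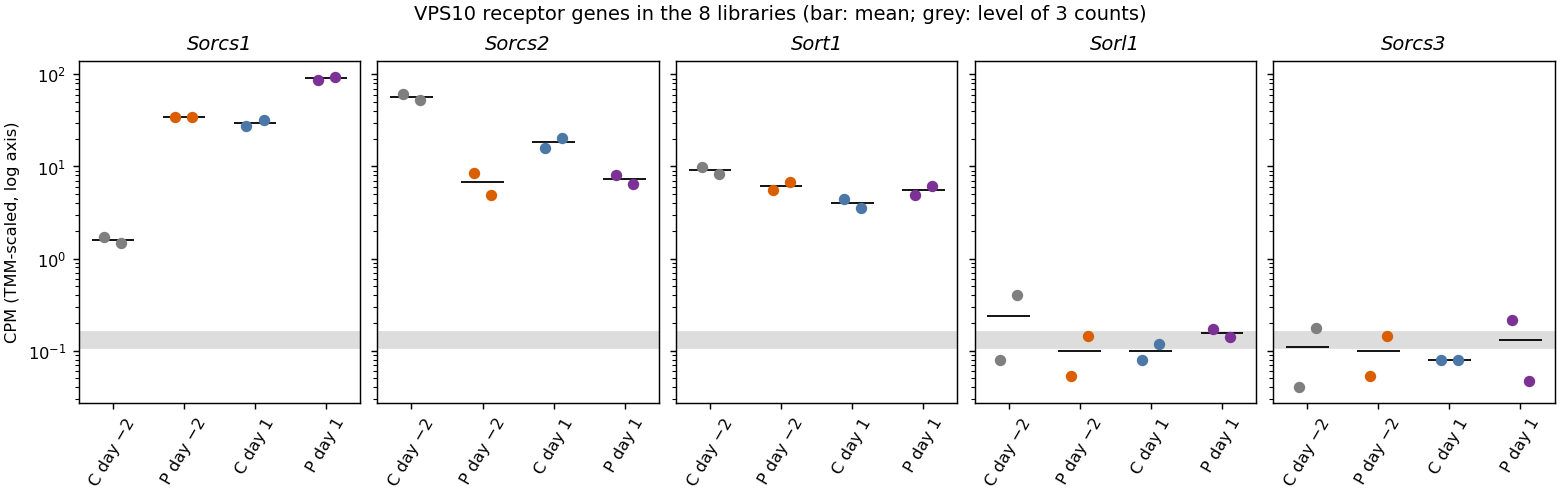
Level of the 5 receptor genes in each of the 8 libraries, in CPM on a log axis, with 1 point per replica, a bar at the mean of the 2 replicas and a grey band at the level of 3 counts (0.107 to 0.160 CPM). Sorcs1 goes from 1.59 CPM in uninduced C cells to 90.9 CPM in induced P cells, Sorcs2 is highest in uninduced C cells (57.0 CPM), Sort1 lies between 3.50 and 9.80 CPM, and Sorl1 and Sorcs3 lie around the band.

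Sorcs1 was lowest in uninduced C cells and highest in induced P cells. Its counts were 43 and 33 in the 2 replicas of uninduced C cells, which is 1.71 and 1.46 CPM. P cells at the same day had 645 and 977 counts, which is 34.4 and 34.9 CPM. Both of these replicas lay far above both of the former. Induced C cells had 703 and 810 counts, which is 27.7 and 32.3 CPM. The induced P cells had 2041 and 2027 counts, which is 87.2 and 94.6 CPM. No condition overlapped another, and the order was uninduced C cells, induced C cells, uninduced P cells and induced P cells. The neighbours in the middle of this order were close, with a mean of 30.0 ± 3.19 CPM (SD, n = 2) in induced C cells and 34.6 ± 0.355 CPM (SD, n = 2) in uninduced P cells. When library totals replaced the TMM scaling these conditions overlapped, with 27.4 and 31.2 CPM in the former and 28.8 and 35.4 CPM in the latter. In bulk RNA, more cells that express a gene and more RNA per cell cannot be told apart.

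As a description of the comparisons on which it was chosen, Sorcs1 was 21.7-fold higher in uninduced P than in uninduced C cells (log2 ratio 4.44, standard error 0.17) and 18.8-fold higher in induced than in uninduced C cells (log2 ratio 4.23, standard error 0.17). The day −2 log2 ratio was 4.46 without replica 1 of the P cells and 4.42 without replica 2, so it did not rest on either of these libraries. The tests that remain are those in which induced P cells were measured. At day 1, Sorcs1 was 3.03-fold higher in P than in C cells (log2 ratio 1.60, 95% interval 1.24 to 1.96, adjusted p = 0.00477, edgeR). Upon induction, the P cells gained a further 2.63-fold (log2 ratio 1.39, 95% interval 1.03 to 1.75, adjusted p = 0.00165, edgeR). Both tests set induced P cells, which the choice did not use, against libraries on which Sorcs1 had been chosen (induced C cells and uninduced P cells), so their p-values are not free of that choice. The second log2 ratio was 1.37 without replica 1 and 1.41 without replica 2 of uninduced P cells. The response of P cells to induction was smaller than that of C cells by 2.84 on the log2 scale (standard error 0.23), again as a description, and 2.37% of all tested genes were called in this difference of responses. On the linear scale, the mean level rose by 28.4 CPM in C cells and by 56.3 CPM in P cells upon induction, so the order of the responses depends on the scale.

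**Figure D2:**
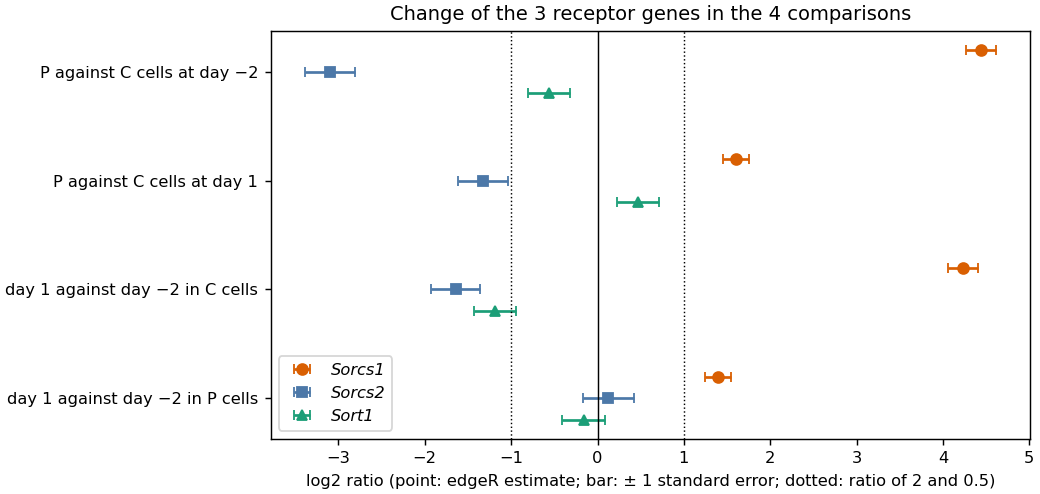
Log2 ratio of Sorcs1, Sorcs2 and Sort1 in the 4 comparisons, with points for the edgeR estimates, bars for 1 standard error to each side and dotted lines at ratios of 2 and 0.5. Sorcs1 lies to the right in all 4, from 1.39 to 4.44, Sorcs2 lies to the left in 3 of them, from −3.09 to −1.32, and Sort1 passes the lower line in C cells upon induction (−1.19).

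Sorcs2 was highest where Sorcs1 was lowest. Uninduced C cells had 1521 and 1205 counts of Sorcs2, which is 60.6 and 53.4 CPM. Uninduced P cells had 160 and 138 counts, which is 8.52 and 4.92 CPM. Both lay well below the C cells of the same day. Induced C cells had 405 and 515 counts, which is 16.0 and 20.5 CPM. Induced P cells had 191 and 137 counts, which is 8.16 and 6.40 CPM. Uninduced C cells thus lay above every other condition and induced C cells lay between, while the P cells of day −2 and day 1 overlapped each other and lay below both.

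At day −2, Sorcs2 was 8.53-fold lower in P than in C cells (log2 ratio −3.09, 95% interval −3.78 to −2.41, adjusted p = 0.00349, edgeR). The log2 ratio was −3.52 without replica 1 of the P cells and −2.75 without replica 2. Upon induction of C cells it fell 3.12-fold (log2 ratio −1.64, 95% interval −2.31 to −0.97, adjusted p = 0.00780, edgeR). At day 1, it was 2.50-fold lower in P than in C cells (log2 ratio −1.32, 95% interval −2.01 to −0.64, adjusted p = 0.0634, edgeR). This call was the least firm of the 3. It was lost without either replica of uninduced C cells (adjusted p = 0.162 each), without replica 1 (0.184) or replica 2 (0.337) of induced C cells, and without replica 1 (0.304) or replica 2 (0.405) of induced P cells.

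In P cells, no change of Sorcs2 upon induction was detected (log2 ratio 0.12, 95% interval −0.58 to 0.83, adjusted p = 0.785, edgeR). The interval leaves room for a decrease or an increase of under 2-fold. With 1 library left out in turn, the log2 ratio lay between −0.22 and 0.56. It was negative without replica 2 of uninduced P cells (−0.22) or replica 1 of induced P cells (−0.06). The response of P cells exceeded that of C cells by 1.77 on the log2 scale (95% interval 0.80 to 2.74) and did not pass the threshold (adjusted p = 0.123, edgeR). The difference was 2.18 without replica 1 and 1.42 without replica 2 of uninduced P cells, the condition with the wide spread. It passed with DESeq2 (adjusted p = 0.00699), which called 930 genes there, against 316 in the main fit.

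Within a library, the ratio of Sorcs1 to Sorcs2 counts does not depend on how the library is scaled. It was 0.0283 and 0.0274 Sorcs1 counts per Sorcs2 count in uninduced C cells. In induced C cells, the ratio was 1.74 and 1.57. In P cells it was 4.03 and 7.08 at day −2 and 10.7 and 14.8 at day 1. The 4 conditions did not overlap. The counts are not per length of transcript, so the ratio compares conditions and not the levels of the 2 genes. Over the 8 libraries, Pearson's r of log2 CPM with Sorcs1 was −0.903 for Sorcs2 and −0.698 for Sort1, as a description over libraries that fall into 4 conditions.

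**Figure D3:**
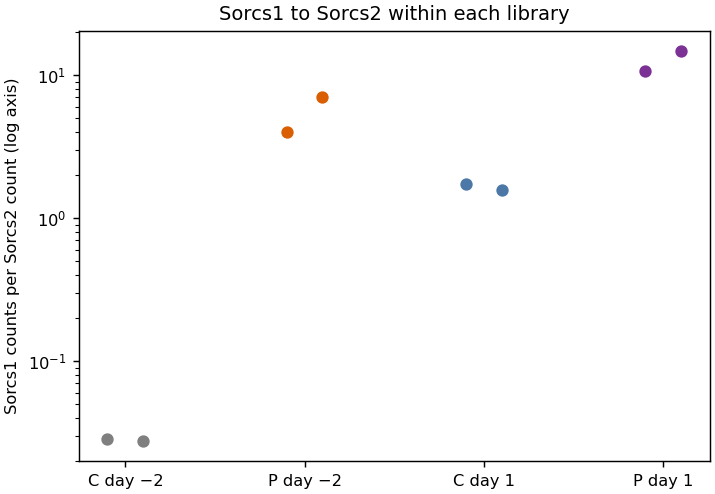
Counts of Sorcs1 per count of Sorcs2 in each of the 8 libraries, on a log axis, with 1 point per replica. The 2 replicas of uninduced C cells lie lowest, at 0.0283 and 0.0274, and the other 6 libraries lie between 1.57 and 14.8.

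Sort1, the sortilin gene, varied less than Sorcs1 and Sorcs2. It had 246 and 188 counts in uninduced C cells, which is 9.80 and 8.33 CPM. Uninduced P cells had 103 and 191 counts, which is 5.49 and 6.81 CPM. These levels were lower than in the C cells without overlap. Induced C cells had 113 and 88 counts, which is 4.46 and 3.50 CPM. Induced P cells had 114 and 132 counts, which is 4.87 and 6.16 CPM. Uninduced C cells were again the highest, induced C cells were the lowest, and the P cells of both days overlapped each other in between.

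The single change of Sort1 that passed was a 2.28-fold decrease upon induction of C cells (log2 ratio −1.19, 95% interval −1.77 to −0.60, adjusted p = 0.0146, edgeR). It no longer passed without replica 1 of uninduced C cells (log2 ratio −1.06, adjusted p = 0.116) or replica 2 of induced C cells (log2 ratio −1.01, adjusted p = 0.119). In P cells, the log2 ratio upon induction was −0.16 (95% interval −0.74 to 0.42, adjusted p = 0.665, edgeR), and it was 0.01 without replica 2 of uninduced P cells or replica 1 of induced P cells. Between P and C cells it was −0.56 at day −2 (95% interval −1.13 to 0.02, adjusted p = 0.210, edgeR) and 0.47 at day 1 (95% interval −0.12 to 1.06, adjusted p = 0.435, edgeR). The last 2 intervals reach just past 2-fold in one direction. The day −2 log2 ratio was −0.40 without replica 1 of uninduced P cells and −0.73 without replica 2, under the ratio threshold in both cases. The difference between the induction responses was 1.03 on the log2 scale (95% interval 0.20 to 1.85, adjusted p = 0.265, edgeR), and it was 1.20 without replica 2 of uninduced P cells.

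Sorl1 and Sorcs3 were at the edge of detection and could not be compared between conditions. Sorl1 had 2 and 9 counts in uninduced C cells, 1 and 4 in uninduced P cells, 2 and 3 in induced C cells, and 4 and 3 in induced P cells. Sorcs3 had 1 and 4 counts in uninduced C cells, 1 and 4 in uninduced P cells, 2 and 2 in induced C cells, and 5 and 1 in induced P cells. Each of them had 3 counts or fewer in 5 of the 8 libraries. The totals over all libraries were 28 counts for Sorl1 and 20 for Sorcs3.

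The genes that handle VPS10 receptors were followed in 5 lists with 77 genes, of which 70 were tested. In P against C cells, 5 of the 70 were called at day −2 and 5 at day 1, which is 7.14% in each case, beside 6.98% and 4.06% of all tested genes. Upon induction, 22 (31.4%) were called in C cells and 14 in P cells, beside 20.4% and 18.0% of all tested genes. The median log2 ratio over all tested genes lay between −0.01 and 0.02 in the 4 comparisons. Counts at an unadjusted p under 0.05, and counts of listed or neighbouring genes called by DESeq2, are given below without the share of all tested genes. They are therefore not a result about the genes counted.

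The retromer returns receptors from endosomes to the trans-Golgi network, and none of the 10 tested genes of the retromer and its sorting nexins was called by edgeR in any comparison. At an unadjusted p under 0.05 there were 1, 0, 2 and 0 of them between P and C cells at day −2, between them at day 1, and upon induction of C and of P cells, and DESeq2 called 1, upon induction of C cells. Their median log2 ratio was −0.16 between P and C cells at day −2, 0.20 at day 1, −0.33 upon induction of C cells and 0.00 upon induction of P cells. Among 17 tested adaptor genes, which include the GGA proteins and the subunits of AP-1 and AP-2, 1 passed in the day 1 comparison of P and C cells and 1 upon induction of P cells, which is 5.88% in each, beside 4.06% and 18.0% of all tested genes. Ap1g2, a large subunit of AP-1, was 2.14-fold lower in induced P cells (log2 ratio −1.10, adjusted p = 0.0998, edgeR), just inside the threshold, and it lost this call without any 1 of the C libraries or of the P libraries at day 1 (adjusted p 0.226 to 0.555). Ap1s1, a small subunit of AP-1, fell 2.35-fold upon induction of P cells (log2 ratio −1.23, adjusted p = 0.0209, edgeR). It lost the call without replica 1 of uninduced P cells (log2 ratio −0.75) and without replica 1 (adjusted p = 0.133) or replica 2 (0.147) of induced P cells. No adaptor was called at day −2 or upon induction of C cells by either tool, and 3 and 2 of them had an unadjusted p under 0.05.

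VPS10 receptors are trimmed by proprotein convertases such as furin, and several are shed from the surface by ADAM proteases and then cut by γ-secretase. Of 9 tested genes for these enzymes, 1 was called, Adam10, a protease that sheds membrane proteins. This is 11.1% upon induction of C cells, beside 20.4% of all tested genes. Adam10 was higher upon induction of C cells, from 104 to 209 CPM (log2 ratio 1.01, adjusted p = 0.0167, edgeR). The ratio was at the threshold of 2 (log2 ratio 0.89 with library totals, under it), and the call was lost without replica 1 (adjusted p = 0.127) or replica 2 (0.114) of uninduced C cells. In that comparison 7 of the 9 had an unadjusted p under 0.05, and DESeq2 called 2. Of all 13339 tested genes, 4743 had an adjusted p under 0.1 there by edgeR, another threshold than that of the 7, so the counts cannot be compared. In P cells upon induction and in P against C cells at either day, no enzyme was called by edgeR or DESeq2, and 2, 3 and 0 of the 9 had an unadjusted p under 0.05.

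**Figure D4:**
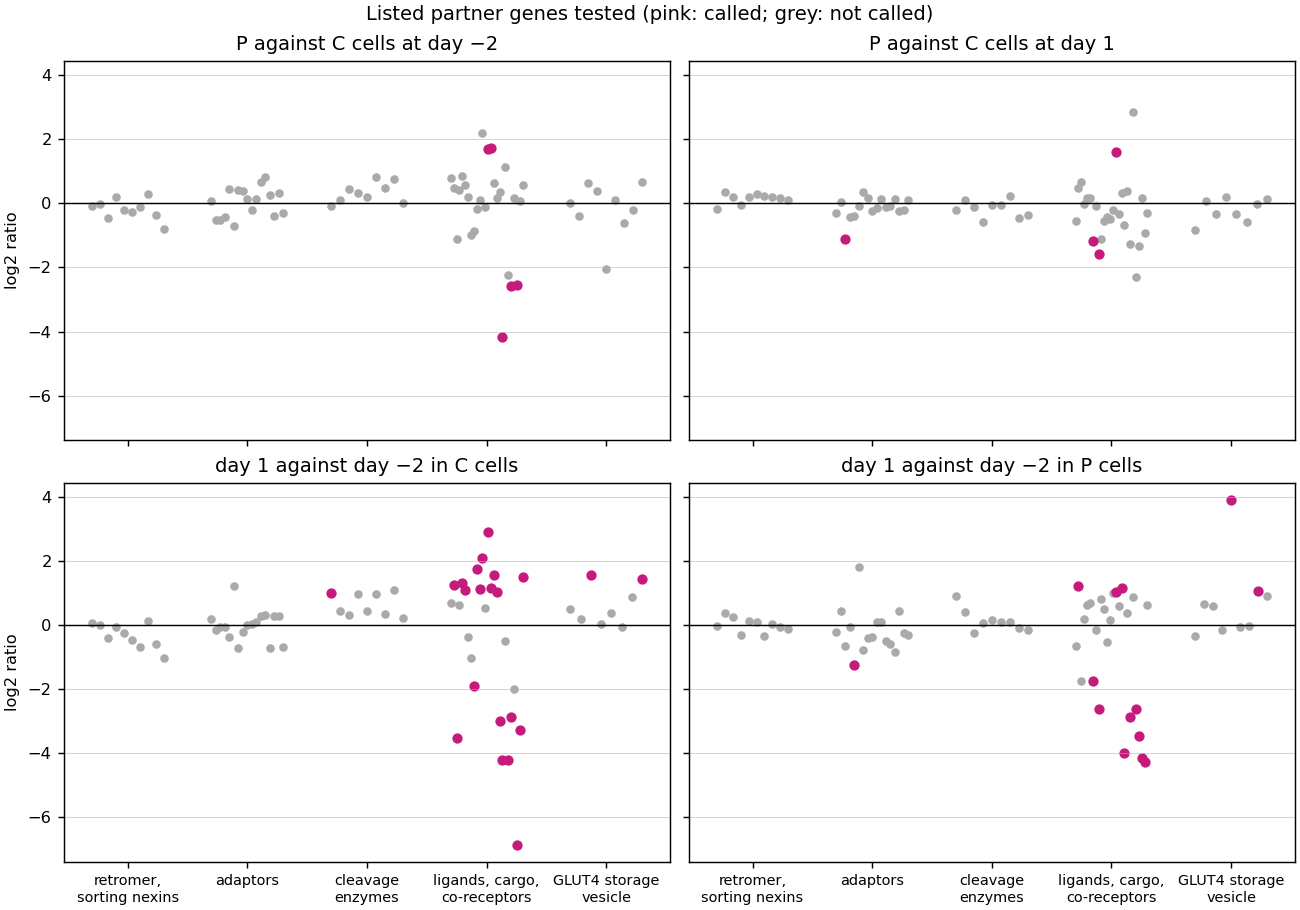
Log2 ratio of the tested genes of the 5 lists in the 4 comparisons, 1 point per gene and list, with called genes in pink and others in grey. Most called genes are in the list of ligands, cargo and co-receptors, where they lie between −6.84 (Pdgfb, with 1 count in each library at day 1) and 2.90. Slc2a4 is not drawn in the panels of P against C cells at day 1 and of C cells upon induction, because both replicas of induced C cells were at 0.

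Most of the called genes were ligands, cargo or co-receptors of the family. Of their 26 tested genes, 2 were higher and 3 lower in uninduced P than in uninduced C cells, and 1 was higher and 2 lower at day 1. This is 19.2% and 11.5% of the list, beside 6.98% and 4.06% of all tested genes. Upon induction, 11 rose and 8 fell in C cells, which is 73.1% of the list beside 20.4% of all genes, and 3 rose and 8 fell in P cells, which is 42.3% beside 18.0%. The median log2 ratio of the list was 0.19, −0.32, 0.58 and 0.17 in these 4 comparisons. The list was written with earlier results of these data known, so these shares are a description.

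Lpl, the lipoprotein lipase that adipocytes secrete and that sortilin and SorLA can bind, had 58.2 ± 0.660 CPM (SD, n = 2) in uninduced C cells and 191 ± 12.3 CPM (SD, n = 2) in uninduced P cells. It was 3.29-fold higher in uninduced P than in uninduced C cells (log2 ratio 1.72, adjusted p = 0.00200, edgeR; 1.79 and 1.65 without replica 1 and replica 2 of the P cells) and 3.04-fold higher at day 1 (log2 ratio 1.60, adjusted p = 0.00339, edgeR). Its mean in induced P cells was 396 ± 29.2 CPM (SD, n = 2), against 130 ± 4.18 CPM (SD, n = 2) in induced C cells. Upon induction of C cells it rose 2.24-fold (adjusted p = 0.00153, edgeR). Like Sorcs1, Lpl was lowest in uninduced C cells and highest in induced P cells. Lifr, the receptor of leukemia inhibitory factor, was 3.23-fold higher in uninduced P than in uninduced C cells (log2 ratio 1.69, adjusted p = 0.00671, edgeR), a call lost without replica 1 (adjusted p = 0.116) or replica 2 (0.109) of uninduced C cells and with only the conditions compared (0.161). The log2 ratio was 1.96 without replica 1 and 1.37 without replica 2 of uninduced P cells. Upon induction of C cells, Lifr rose 7.49-fold (log2 ratio 2.90, adjusted p = 0.000265, edgeR), from 10.6 to 79.4 CPM.

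The 3 genes of the list counted as lower in uninduced P cells were Ngfr, Ntrk3 and Pdgfb. Ngfr, the neurotrophin receptor that pairs with SorCS2, had 42 to 49 counts in uninduced C cells and 0 to 5 in each of the other 6 libraries. It passed the filter on low counts through uninduced C cells alone, so it is given without a test, and it was named after its values were seen. Ntrk3, the receptor of neurotrophin 3, had 108 to 130 counts in uninduced C cells and 19 in each replica of uninduced P cells, a log2 ratio of −2.57 (adjusted p = 0.0261, edgeR). Pdgfb, a growth factor listed as a ligand of the family, had 112 to 134 counts in uninduced C cells and 17 to 22 in uninduced P cells, a log2 ratio of −2.55 (adjusted p = 0.0150, edgeR), and 1 count in every library at day 1. Without replica 1 or replica 2 of uninduced C cells, the calls of Ntrk3 (adjusted p = 0.248 and 0.214) and of Pdgfb (adjusted p = 0.181 and 0.161) were lost at day −2. Without replica 1 and replica 2 of uninduced P cells, the log2 ratio was −2.86 and −2.30 for Ntrk3 and −3.07 and −2.14 for Pdgfb.

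Bdnf and Gdnf, neurotrophic factors that bind VPS10 receptors themselves or as precursors, were lower in P than in C cells after induction. At day −2, Gdnf already had a lower mean in P cells, 4.40 CPM against 7.97 CPM in C cells. Its log2 ratio there was −0.86 (adjusted p = 0.0913, edgeR), under the ratio threshold, and that of Bdnf was 0.20 (adjusted p = 0.368, edgeR). The mean of Bdnf was 51.4 ± 1.47 CPM (SD, n = 2) for induced C cells and 22.8 ± 0.847 CPM (SD, n = 2) for induced P cells, a 2.25-fold difference (log2 ratio −1.17, adjusted p = 0.00856, edgeR). This call was lost without replica 1 (adjusted p = 0.142) or replica 2 (0.160) of induced P cells. The mean of Gdnf was 2.14 ± 0.379 CPM (SD, n = 2) for induced C cells and 0.713 ± 0.0186 CPM (SD, n = 2) for induced P cells (log2 ratio −1.58, adjusted p = 0.0310, edgeR). Without any 1 of the 6 libraries other than those of uninduced P cells, the call of Gdnf was lost (adjusted p 0.103 to 0.270). In P cells, both fell upon induction, Bdnf 3.34-fold (adjusted p = 0.000567, edgeR) and Gdnf 6.12-fold (adjusted p = 0.00138, edgeR). Plaur, the urokinase receptor, fell 9.65-fold in C cells (adjusted p = 0.00109, edgeR) and 19.4-fold in P cells (adjusted p = 0.000731, edgeR). With either library of uninduced P cells left out, these 3 decreases in P cells had log2 ratios of −1.81 to −1.67 for Bdnf, −2.71 to −2.51 for Gdnf and −4.62 to −3.85 for Plaur.

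The vesicle that stores GLUT4 in fat cells is where sortilin is best known. Slc2a4, the GLUT4 gene, was near the floor in most libraries, with 4 and 5 counts in uninduced C cells, between 0 and 2 in uninduced P cells and 0 in both replicas of induced C cells. Induced P cells had 14 to 17 counts (0.696 CPM), which is at least 5.85-fold higher than in induced C cells, taking 3 counts per library as the floor. It passed the filter on low counts through induced P cells alone, so no test is given for it. Upon induction, 3 of the 9 tested genes of the list were called in C cells (33.3%) and 2 in P cells (22.2%), beside 20.4% and 18.0% of all tested genes, and Slc2a4 is in both counts. Its decrease in C cells was at least 1.58-fold, under the ratio threshold, and its call there was lost without any 1 of the 6 libraries other than those of uninduced P cells. Vamp2, the vesicle protein that drives fusion, rose in C cells 2.70-fold (adjusted p = 0.00432, edgeR). Lrp1, an endocytic receptor of the same vesicle, rose 2.96-fold in C cells (adjusted p = 0.00753, edgeR). Tbc1d4, the Rab regulator through which insulin releases the vesicles, rose 2.12-fold in P cells (adjusted p = 0.0140, edgeR), a call lost without replica 2 of uninduced P cells (log2 ratio 0.84) or replica 2 of induced P cells (adjusted p = 0.113). At day −2, none of the 9 genes of this list was called between P and C cells by edgeR or DESeq2, and 3 had an unadjusted p under 0.05. Sort1 itself was not called higher in any of the 4 comparisons.

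The genes whose level followed Sorcs1 most closely over the 8 libraries, among 10904 tested genes with a mean of 50 counts or more, were Lama4 (Pearson's r of log2 CPM 0.988), Tollip (0.987), Ankrd46 (0.985), Dlc1 (0.985), Dact1 (0.984) and Fst (0.984). They were picked for this likeness, which is a description and has no test, and the size of their changes differed widely. Lama4, a laminin chain of basement membranes, had means of 36.7, 191, 258 and 459 CPM in uninduced C cells, uninduced P cells, induced C cells and induced P cells. Dact1, an intracellular antagonist of Wnt signalling, had 1.84, 8.96, 10.7 and 20.3 CPM in the same order. Fst, the secreted activin antagonist follistatin, had 10.1, 77.3, 55.4 and 98.4 CPM. These 3 genes differed between uninduced C cells and the other conditions by 4.84-fold or more, less than Sorcs1 with 18.8-fold or more. Tollip, an adaptor of Toll-like receptor signalling, moved between 55.9 and 77.0 CPM only, so a high r does not mean a large change. Dlc1, a GTPase-activating protein, had 58.2 CPM in uninduced C cells and 121, 112 and 179 CPM in the other conditions, and Ankrd46 lay between 32.9 and 56.3 CPM.

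**Figure D5:**
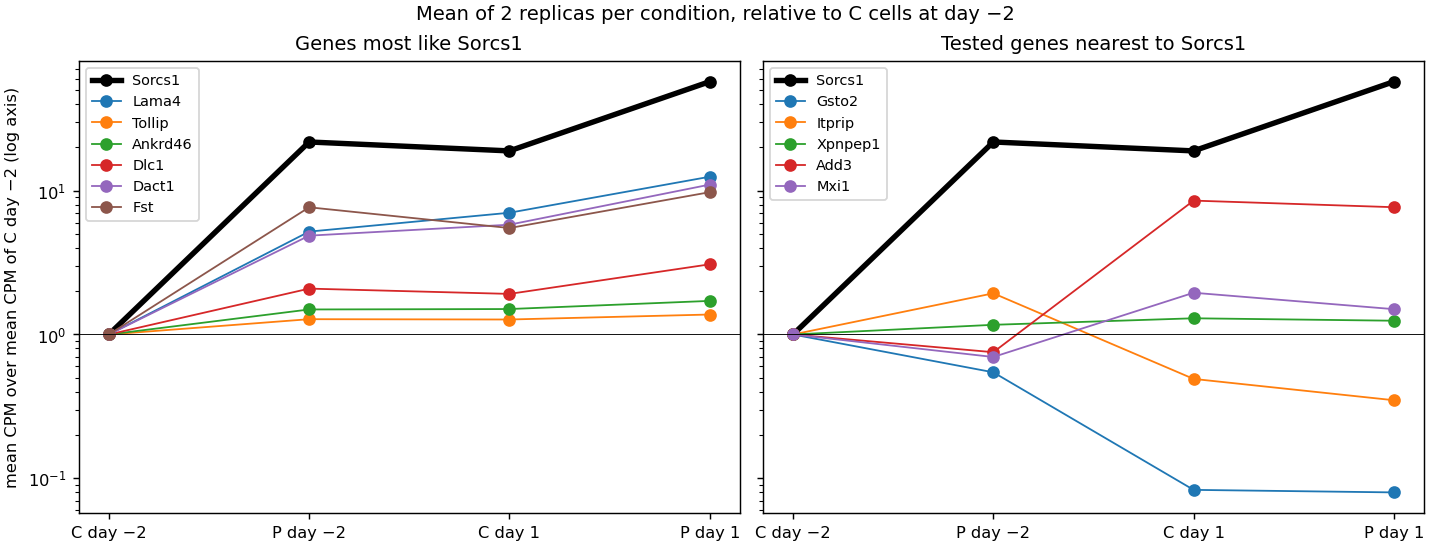
Mean CPM of the 2 replicas per condition, relative to uninduced C cells, on a log axis, for the 6 genes most like Sorcs1 (left) and the 5 tested genes nearest to it in gene order (right), with Sorcs1 in black. The genes on the left rise in the same order of conditions as Sorcs1 or nearly so, Tollip the least, and on the right no gene has a rise in uninduced P cells like that of Sorcs1.

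In the RefSeq gene order, the protein-coding genes on one side of Sorcs1 were Sorcs3, Cfap58, Itprip and Gsto2, and on the other side Ins1, Xpnpep1, Add3 and Mxi1. Sorcs3, the nearest on its side and a member of the family, had 1 to 5 counts in every library, where Sorcs1 was low and where it was high. Cfap58 had 1 to 5 counts and Ins1, a mouse insulin gene, 0 to 2. None of the 5 tested neighbours was called in P against C cells at day −2 or at day 1 by edgeR or DESeq2. Of all tested genes, edgeR called 6.98% and 4.06% there, and with 5 genes none called is near these shares. At an unadjusted p under 0.05 there were 4 and 0 of the neighbours. Itprip, which modulates the inositol trisphosphate receptor, came closest, with a log2 ratio of 0.95 at day −2 (adjusted p = 0.0994, edgeR), under the ratio threshold. Upon induction of C cells, Add3, an adducin of the membrane skeleton, rose from 23.1 to 197 CPM (log2 ratio 3.09, adjusted p = 6.16e-05, edgeR), and Gsto2, a glutathione transferase, fell from 6.91 to 0.575 CPM (log2 ratio −3.58, adjusted p = 0.00108, edgeR). Both changed in the same direction in P cells, with log2 ratios of 3.35 and −2.76. Mxi1, an antagonist of Myc, was called in P cells (log2 ratio 1.10, adjusted p = 0.00738, edgeR), but not without replica 2 of induced P cells (log2 ratio 0.97). Itprip fell in both as well, with log2 ratios of −1.03 in C cells, a call lost without any 1 of the 4 C libraries (adjusted p 0.126 to 0.185), and −2.47 in P cells. In all, 3 of the 5 were called upon induction of C cells and 4 upon induction of P cells, beside 20.4% and 18.0% of all tested genes. The neighbours of Sorcs1 that responded to induction went in both directions.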

How the data were processed

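RNA of 8 libraries of 3T3-L1 cells was sequenced by the authors on the Ion Torrent system. The authors used the FASTX-Toolkit to clean the reads, placed them on mm9 with TopHat2 2.0.9 and counted them per gene against the UCSC refGene annotation. The deposited values are these raw counts for 24013 genes. The use of the strand and of reads from several genes is not given in the sources used here, and all isoforms of a gene are summed. RefSeq symbols of a later build (GRCm38.p6) were found for 23929 genes and are used for names and gene order only. Sequences, promoters, coordinates and transcript lengths are not used here, so levels are not compared between genes, and the ratio of Sorcs1 to Sorcs2 counts is compared between conditions only.

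The tests were run with edgeR 4.0.16, limma 3.58.1 and R 4.3.3. Filtering with filterByExpr left 13339 genes. Libraries were scaled by TMM (factors 0.837 to 1.08), and log2 CPM used a prior count of 2. All libraries entered 1 quasi-likelihood fit that gives each condition its own mean, with Benjamini-Hochberg adjustment over all tested genes. The difference of the responses was called at an adjusted p under 0.1 with no ratio threshold. With 2 replicas per condition, the smallest two-sided p of an exact permutation test is 0.333. The labels name no batch, and no pair of libraries held identical counts. The test was also run on simulated counts, and the outcome is not reported here, so it adds nothing to the results above.

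The members and the lists were chosen with earlier results of these data known. Named genes are the members, Prep1, up to 4 called genes per list and comparison by lowest p, the 6 genes most correlated with Sorcs1 and the 4 protein-coding genes on each side of it. The values of 1 gene named by this rule are not reported here. Alternatives were DESeq2 1.42.0, its size factors, library totals, no filter, at least 10 counts in every library, only the conditions compared, the replica number as a block, no ratio threshold, leaving out 1 library at a time and an adjusted p under 0.05. Both crossed blocks were chosen after seeing the data.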

Additional observations from a re-analysis of the deposited data

Results flagged for a closer look

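Of the genes named above, 2 were called in the test of the difference of the induction responses, and 4 more are given as a description. In this difference, 3 of the 70 tested genes of the lists (4.29%) were called, Slc2a4 among them, beside 2.37% of all tested genes. Most named genes were picked because they were called or were like Sorcs1, so the count is not a result about them. The response of Sorcs1 in P cells minus that in C cells was −2.84 on the log2 scale, with no p given because Sorcs1 was chosen on these comparisons. Fst differed by −2.11 and Lama4 by −1.54, with no p because both were picked for their likeness to Sorcs1 over the same libraries. Bdnf, which fell further in P than in C cells, differed by −1.38 (adjusted p = 0.0298, edgeR). Lifr, which rose further in C cells, differed by −1.91 (adjusted p = 0.0374, edgeR). Slc2a4 had 0.696 CPM in P cells at day 1 and 0 in both replicas of C cells at day 1, with no p because it passed the filter on low counts through the former alone. The calls of Bdnf and Lifr were lost without any 1 of the 6 libraries other than those of P cells at day −2. The call of Lifr was also lost with library totals (adjusted p = 0.134).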

How the results depend on the processing

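Over 168 recomputed log2 ratios of Sorcs2 and Sort1, 147 kept their direction and their side of the threshold, 10 lost a call, 6 gained one and 5 changed sign. Sorcs2 kept its call under every alternative between P and C cells at day −2 and upon induction of C cells. Sorcs1 did so between P and C cells at day 1 and upon induction of P cells. Both comparisons of Sorcs1 use libraries on which it was chosen, so its kept calls are not free of that choice. The fits without a library of uninduced P cells add little for either gene, as given below. Members called went from 2 to 1 in P against C cells at day 1 with the replicate block, with the numbers of the P cells at day 1 crossed and with an adjusted p under 0.05, and lay between 1 and 2 with single libraries left out. Sorcs2 was the gene lost there, with an adjusted p of 0.109 with the block and 0.126 with the crossed numbers. In the difference of the responses, members called went from 1 to 2 with DESeq2, library totals or no filter, which add Sorcs2, and lay between 1 and 3 with single libraries left out. With DESeq2, the count of all genes called in this difference went from 316 to 930. With 1 library left out, members were gained only without a library of uninduced P cells. More of all genes were called in those fits too. The gains in these settings are therefore not a result about the members. Changes of sign were seen upon induction of P cells alone, where no call was made. With single libraries left out, the log2 ratio of Sorcs2 there lay between −0.22 and 0.56, with −0.22 and −0.06 the negative values, and that of Sort1 between −0.34 and 0.01, with 0.0144 and 0.00732 the positive ones. Library totals gave 0.00601 for Sort1. They moved the median of all genes by −0.18, 0.10, −0.11 and 0.17 in the 4 comparisons and by 0.29 in the difference of responses.

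The number of genes called was less stable, and the cause was not tested. For P and C cells at day −2, the 931 genes became 81 with only the conditions compared, 597 with the block, 602 with an adjusted p under 0.05, 1513 with no ratio threshold and 188 to 4380 with 1 library left out. At day 1, the 542 genes became 899 with only the conditions compared, 820 with no ratio threshold and 63 to 994 with 1 library left out. Upon induction, the 2723 genes of C cells became 4743 with no ratio threshold and 1664 to 3329 with 1 library left out. The 2406 genes of P cells became 1213 with only the conditions compared, 4192 with no ratio threshold and 1248 to 5000 with 1 library left out. The 316 genes of the difference of responses became 930 with DESeq2, 117 with the block, 148 when P libraries of day 1 swap numbers, 174 with an adjusted p under 0.05 and 32 to 8395 with 1 library left out. The highest counts were those without replica 2 of P cells at day −2, or without its replica 1 for P and C cells at day 1 and for C cells upon induction. A lone remaining replica was assumed to vary like the other conditions. A call kept or gained without a library of P cells at day −2 therefore says little. Libraries that carry the same number gave 6 correlations of their deviations, of which 5 were negative (−0.355 to 0.209), so the numbers do not pair the samples. The block changed no other call of a member. Of 800 recomputed ratios of the other named genes, 689 kept their call, 111 lost it and none changed sign. Depth limits Sorl1 and Sorcs3, and Slc2a4 outside induced P cells.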
